A study of Homo sapiens with 15 samples.

Results

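The enzymes and regulators of cholesterol and fatty acid synthesis were followed through 15 RNA sequencing libraries of K562 cells. The 32 genes were taken from a list of symbols by pathway role: 6 of the mevalonate steps, 11 from squalene to cholesterol, 5 regulators, 1 sterol transporter, 3 that supply acetyl-CoA and 6 of fatty acid synthesis. All 32 symbols were found among the 57500 gene rows of each counts table, and all 32 passed the filter on low counts that left 15517 genes for testing. Their choice used the pathway and no contrast of these libraries, although earlier results of the same data were known when the list was made.

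Cholesterol and fatty acids are both built from acetyl-CoA. Cholesterol arises through mevalonate and squalene, and fatty acids through malonyl-CoA. Most of the genes share a family of transcription factors, the sterol regulatory element-binding proteins, encoded by SREBF1 and SREBF2. These are made as inactive membrane proteins of the endoplasmic reticulum, where SCAP senses sterol and escorts them to the Golgi for cleavage, while the INSIG proteins hold SCAP back when sterol is plentiful. INSIG1 is itself a target of the cleaved factors. JQ1 is an inhibitor of the bromodomains of the BET proteins, which bind acetylated chromatin and promote transcription.

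K562 is a human chronic myeloid leukaemia line with erythroid features. In the series, cells transfected with Cas9FCPF, a Cas9 bearing the FCPF tag, with or without sgRNA, were given JQ1 or JQ1-FCPF at 1 µM, and RNA was taken at 1 h. FCPF is a short peptide tag known as the pi-clamp, whose cysteine reacts with perfluoroaromatic groups; the structure of JQ1-FCPF is not given in the labels. The 5 groups held 3 libraries each, namely a control and, for each of JQ1 and JQ1-FCPF, cells that had Cas9FCPF alone and cells that had it together with sgRNA. The control is labelled as genotype WT and treatment NT, whereas the series text names DMSO as the control. No label states that control cells were transfected, so a comparison with the control joins transfection, Cas9FCPF and compound. The title of the series names dCas9 and the labels Cas9. The target of the sgRNA is not named in the labels. Replicates 1 to 3 carry the letters a to c in the sample titles, and nothing says that they are separate cultures, so p-values measure the spread between these libraries, which may be technical.

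Libraries held 12625669 to 17544518 counts, and the 32 genes together took 0.507% to 0.637% of them. All 11 erythroid markers checked were at 1 CPM or more (CPM, counts scaled to the library's size), with summed levels of 1871 to 2717 CPM, whereas 3 of the 4 B cell markers were under 1 CPM in every library, although the labels call the cells lymphoblast cells. MYC, the oncogene that is the textbook readout of JQ1, had 57.3, 60.2 and 61.0 CPM in the 3 libraries of JQ1-FCPF with sgRNA and 103 CPM or more in each of the other 12. TXNIP, an arrestin that restrains glucose uptake, had 254 to 303 CPM there and 66.4 to 136 elsewhere. Replicate 2 of JQ1-FCPF with sgRNA stood apart over all genes. Its first principal component (29% of the variance) was 32.2, next to the 6 JQ1 libraries at 16.8 to 24.6, and the other libraries of its group were at -16.7 and -14.8. Its MYC of 57.3 CPM and TXNIP of 254 CPM were those of its own group, whereas its HEXIM1, a gene whose product restrains transcription elongation, was at 86.6 CPM against 167 and 139 in the other replicates and 80.8 to 105 in the JQ1 libraries. Replicate 1 of JQ1 with sgRNA had the highest mitochondrial share, 7.38% against 2.28% to 5.91% elsewhere. Its second principal component was -12.5, against 5 and 4.9 in its group, but its first, 24.6, was near their 19.6 and 22. These are the 2 libraries said below to stand apart, the JQ1 library less so on the first component. Values that move most with replicate 2 are also given without it.

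Per length of annotated exon, the most abundant of these mRNAs in the control belonged to fatty acid synthesis. That length counts every annotated exonic base of a gene and not the transcript expressed, so the ranking is approximate. SCD, the desaturase that makes oleate, reached 155 ± 9.05 RPKM (CPM per kilobase of exon, SD, n = 3) and FASN, the fatty acid synthase, 120.3 ± 9.76, above 98.1% and 97.5% of all genes tested. ACLY, which cleaves citrate to cytosolic acetyl-CoA, followed at 71.3 ± 5.22 RPKM and DHCR7, the last reductase of cholesterol synthesis, at 60.5 ± 4.63. DHCR7, FDPS (54.3 ± 1.66), FADS1 (51.3 ± 2.99) and FDFT1 (49.7 ± 3.36) each lay within the summed SDs of the next, so their order is not resolved. The regulators ranged from INSIG1 at 47.3 ± 1.99 RPKM and SREBF1 at 33.0 ± 1.69 through SCAP at 25.5 ± 1.37 and SREBF2 at 18.7 ± 1.05 to INSIG2, the lowest of the 32, at 1.67 ± 0.131. CYP51A1, the lanosterol demethylase, was low and irregular at 2.30 ± 0.785 RPKM. It shares 82.2% of its exonic bases with other genes, and ACAT2, the cytosolic thiolase that opens the mevalonate route, shares 52.3%. Since the use of strand in counting is not given, values for both are uncertain.

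**Figure D1:**
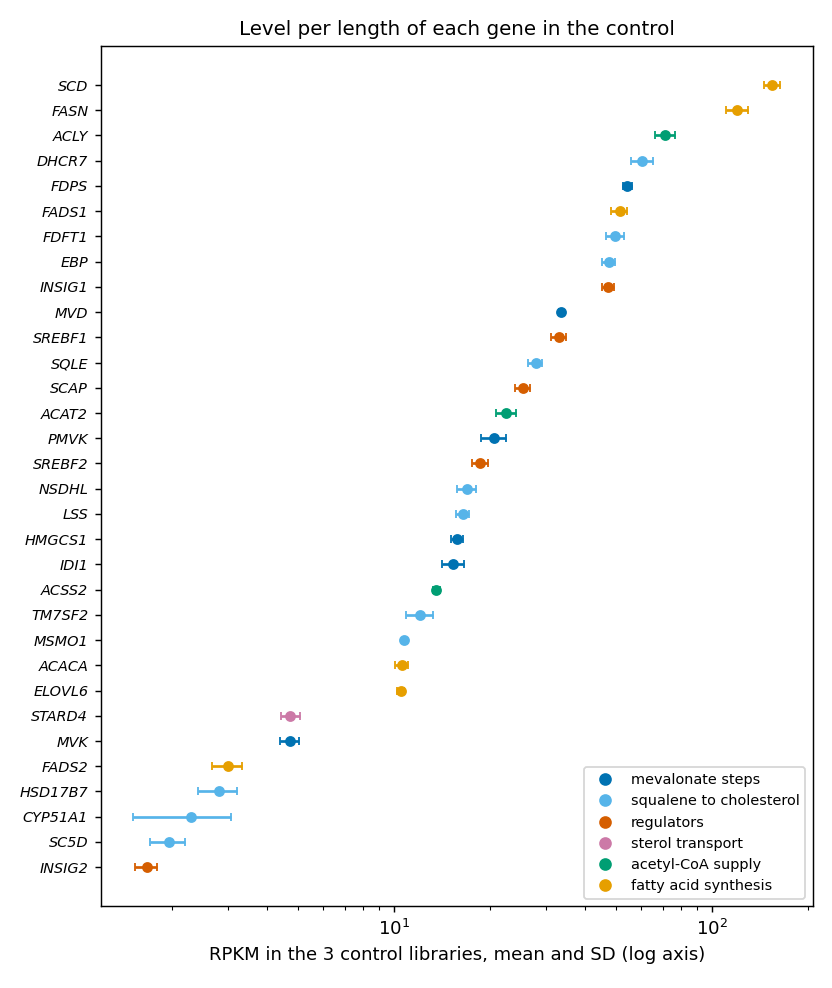
Points give the mean RPKM (log axis) of each gene over the 3 control libraries and bars the SD, coloured by role. SCD at 155 and FASN at 120.3 stand at the top, and INSIG2 at 1.67 at the bottom.

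Promoter sequences are shown for genes whose levels differed between groups and for SREBF2, the only gene with a window that held the sterol regulatory element searched for. RefSeq windows (GRCh38.p14) of 300 bases around gene starts were available for 28 of the 32 genes, in 39 windows. Letters in capitals mark matches on either strand to the CCAAT box bound by NF-Y (ATTGG when read on the opposite strand), the GC box GGGCGG bound by Sp1 (CCGCCC) and the sterol regulatory element TCACNCCAC. Each stretch ends just before the first annotated exon base of its gene and is written 5′ to 3′ on the gene's strand. INSIG1 (chr7:155297628-155297775, plus strand) and IDI1 (chr10:1049171-1049369, minus strand) are the genes with the largest sgRNA effect under JQ1-FCPF. HMGCS1 (chr5:43313513-43313662, minus) and MSMO1 (chr4:165327419-165327622, plus) were called higher with JQ1 and sgRNA, and SREBF1 (chr17:17837003-17837236, minus) was lower. The SREBF2 stretch (chr22:41832855-41833078, plus) lies within an exon of the antisense gene SREBF2-AS1.
INSIG1: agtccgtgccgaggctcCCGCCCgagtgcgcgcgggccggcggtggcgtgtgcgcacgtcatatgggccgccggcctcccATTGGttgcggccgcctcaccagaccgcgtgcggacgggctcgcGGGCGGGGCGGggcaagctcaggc
IDI1: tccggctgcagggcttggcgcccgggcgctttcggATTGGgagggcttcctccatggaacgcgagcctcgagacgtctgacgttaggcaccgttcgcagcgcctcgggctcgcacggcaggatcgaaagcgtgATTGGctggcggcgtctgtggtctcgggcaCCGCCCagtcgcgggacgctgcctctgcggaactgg
HMGCS1: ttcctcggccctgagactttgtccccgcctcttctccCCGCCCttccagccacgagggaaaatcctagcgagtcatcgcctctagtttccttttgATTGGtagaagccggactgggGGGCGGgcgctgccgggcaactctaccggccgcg
MSMO1: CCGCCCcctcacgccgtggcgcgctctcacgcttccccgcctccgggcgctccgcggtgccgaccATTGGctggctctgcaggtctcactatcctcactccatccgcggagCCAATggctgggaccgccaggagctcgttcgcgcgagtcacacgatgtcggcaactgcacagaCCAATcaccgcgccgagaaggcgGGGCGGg
SREBF2: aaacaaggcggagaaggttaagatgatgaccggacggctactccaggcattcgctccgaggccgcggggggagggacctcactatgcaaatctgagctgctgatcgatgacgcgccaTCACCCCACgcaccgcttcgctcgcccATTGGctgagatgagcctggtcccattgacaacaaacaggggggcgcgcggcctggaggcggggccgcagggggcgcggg
SREBF1: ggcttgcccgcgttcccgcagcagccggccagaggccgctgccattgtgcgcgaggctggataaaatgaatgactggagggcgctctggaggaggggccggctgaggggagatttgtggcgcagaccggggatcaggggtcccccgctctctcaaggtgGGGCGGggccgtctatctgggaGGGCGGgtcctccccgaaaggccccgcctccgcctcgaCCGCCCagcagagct
A CCAAT box lay in the windows of 21 of the 28 genes (75.0%), against 42.9% of the 10648 tested genes with a window. The GC box was found in 27 of the 28 (96.4%), against 76.5%. SREBF2 alone held the sterol regulatory element as spelled here (3.6%, against 1.32%), and an E-box, CACGTG, was found for INSIG1, LSS, SC5D and SCAP (14.3%, against 12.6%). In INSIG1 the pair of GC boxes nearest the start overlap by 1 base. Of the genes called in a comparison and with a window, INSIG1, IDI1, MVD, HMGCS1, MSMO1, HSD17B7, ACSS2 and LSS held a CCAAT box and SREBF1 did not. Most genes called in no comparison held it too: ACACA, ACLY, DHCR7, EBP, FADS2, FDPS, MVK, NSDHL, SC5D, SCD, SREBF2, STARD4 and TM7SF2. CYP51A1, ELOVL6, FADS1, INSIG2, PMVK and SCAP, also never called, did not. These matches are descriptions of letters and not of binding.

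The first question was what the sgRNA added when JQ1-FCPF, the compound named for the tag on Cas9, was present. INSIG1 and IDI1 rose, MVD rose slightly and SREBF1 fell slightly. A gene is called here when the Benjamini-Hochberg adjusted p of edgeR's quasi-likelihood test over all genes is under 0.05. Of the 32 genes, 3 were called higher (9.38%) and 1 lower (3.12%), against 1.98% and 4.14% of all genes tested. The median log2 fold change of the 32 was 0.18, against 0.01 over all genes, and 26 of 32 values were above 0.

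INSIG1, the anchor that keeps SCAP in the endoplasmic reticulum, had 171, 145 and 143 CPM in JQ1-FCPF without sgRNA and 270.5, 251 and 304 CPM with it. All 3 libraries with sgRNA were above each of the other 12 libraries, the next being JQ1 with sgRNA at 229. Its level was 1.80-fold higher, a log2 change of 0.85 ± 0.10 (SE, edgeR adjusted p = 5.53e-06). IDI1, the isomerase that makes the reactive isoprene unit, had 51.8, 43.3 and 47.6 CPM without sgRNA and 74.3, 77.4 and 70.5 with it, so the groups were well separated. The rise was 1.56-fold (log2 0.64 ± 0.10, edgeR adjusted p = 2.46e-04). Both calls held in 12 of 12 alternative analyses. IDI1 shares 17.9% of its exonic bases with a gene on the opposite strand.

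MVD, the mevalonate diphosphate decarboxylase just before IDI1, had 150.3, 165 and 167 CPM without sgRNA and 179, 227 and 196 with it. The groups did not overlap, and the rise was 1.25-fold (log2 0.32 ± 0.09, edgeR adjusted p = 0.0442). SREBF1, which encodes the factor best known for fatty acid genes, had 232, 264 and 274 CPM without sgRNA and 204, 174 and 224 with it. It was lower in all 3 libraries with sgRNA, 1.28-fold (log2 -0.36 ± 0.11, edgeR adjusted p = 0.0467). Without replicate 2 of JQ1-FCPF with sgRNA neither passed: MVD had a log2 change of 0.23 (edgeR adjusted p = 0.150) and SREBF1 of -0.26 (edgeR adjusted p = 0.159). MVD was called in 3 and SREBF1 in 5 of 12 alternative analyses. The count called was likewise 2, INSIG1 and IDI1, without replicate 2 or without replicate 3 of JQ1-FCPF without sgRNA. Calls over all genes were then 491 and 430, against 951 with every library. Without replicate 2 of JQ1-FCPF with sgRNA they were 971.

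**Figure D2:**
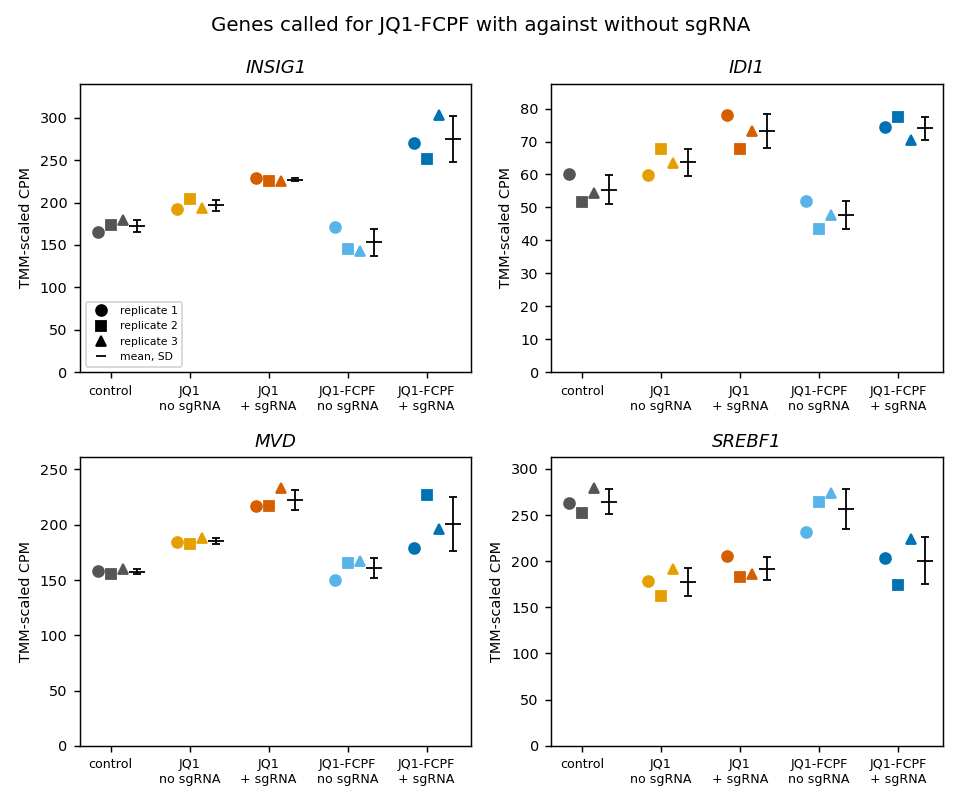
TMM-scaled CPM of INSIG1, IDI1, MVD and SREBF1 in each of the 15 libraries, with the mean and SD of each group of 3. The 3 libraries of JQ1-FCPF with sgRNA lie highest for INSIG1, at 251 to 304 CPM, and SREBF1 is lower in both JQ1 groups than in the control.

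By role, the mevalonate genes had a median log2 change of 0.26 (2 of 6 called), the 11 genes from squalene to cholesterol 0.19 and the 6 fatty acid genes 0.13. EdgeR called 0 of the 11 and 0 of the 6, with 1 and 2 at an unadjusted p under 0.05, and DESeq2 called 0 and 1. ACACA, the acetyl-CoA carboxylase that commits carbon to fatty acids, had 171, 165 and 166 CPM with sgRNA against 153, 121 and 136 without. These were the 3 highest of all 15 libraries, yet edgeR did not call it (log2 0.29, adjusted p = 0.0655), whereas DESeq2 did. FASN (log2 0.09), SCD (0.23) and SQLE, the squalene epoxidase (0.17), were not called. HMGCS1, the HMG-CoA synthase, had a change of 0.47 with an interval of 0.07 to 0.86 and an edgeR adjusted p of 0.153. Among the other regulators, SREBF2 had a log2 change of 0.28, SCAP of 0.13 and INSIG2 of -0.09, none called. Several of these values rest on replicate 2 of JQ1-FCPF with sgRNA: without it the log2 change was 0.13 for HMGCS1 (edgeR adjusted p = 0.634), 0.07 for SREBF2, -0.04 for SQLE and -0.29 for INSIG2, whereas ACACA stayed at 0.30. Summed erythroid marker levels were 1893 to 2212 CPM with sgRNA and 2391 to 2527 without. The 5 fibroblast markers summed to 4.41 to 6.74 CPM with sgRNA and 2.22 to 2.38 without, with 4 of 5 under 1 CPM throughout. The part of either in these results was not tested, and in bulk RNA fewer cells of a type and less RNA per cell cannot be told apart.

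Under JQ1, no gene of the pathway was called for the sgRNA. Of the 32 genes 0 were called in either direction, against 0% higher and 0.0129% lower of all genes tested with edgeR. DESeq2 called 0 as well, and 3 of the 32 genes, among 1240 of all genes, had an unadjusted edgeR p under 0.05. The median log2 change was 0.08, against 0.01 over all genes. LSS, the lanosterol synthase, had 90.7, 97.5 and 98.7 CPM without sgRNA and 118, 108 and 131 with it, groups that did not overlap (log2 0.32, interval 0.12 to 0.52, edgeR adjusted p = 0.517). INSIG1 went from 192, 204 and 194 CPM to 229, 226 and 226 (log2 0.21, interval 0.01 to 0.40), and IDI1 had a log2 change of 0.20, with edgeR adjusted p of 0.617 and 0.618.

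Whether the sgRNA effect differed between the compounds was tested directly as an interaction. INSIG1 alone of the 32 passed (1 higher and 0 lower, against 0.174% and 0.593% of all genes): its sgRNA effect was larger under JQ1-FCPF, a log2 difference of 0.64 ± 0.14 with edgeR adjusted p = 0.0210. IDI1 had a difference of 0.44 (interval 0.15 to 0.72, edgeR adjusted p = 0.149) and SREBF1 of -0.47 (interval -0.78 to -0.16, edgeR adjusted p = 0.158). FDFT1, the squalene synthase, had a difference of 0.47 (edgeR adjusted p = 0.332), which was 0.19 without replicate 2 of JQ1-FCPF with sgRNA and 0.10 without both libraries that stand apart. SREBF1 then had -0.37 and -0.31, and IDI1 0.41 and 0.47, the last of these called (edgeR adjusted p = 0.0311). The INSIG1 call was lost when any of 7 libraries was left out (each replicate of JQ1 without sgRNA, replicate 2 of JQ1 with sgRNA, replicates 2 and 3 of JQ1-FCPF without sgRNA, replicate 3 of JQ1-FCPF with sgRNA), with differences of 0.56 to 0.66 and edgeR adjusted p up to 0.0969. Calls over all genes were 49 to 93 in those fits, against 119 with every library. Without replicate 2 of JQ1-FCPF with sgRNA the INSIG1 difference was 0.71 (edgeR adjusted p = 0.00219).

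**Figure D3:**
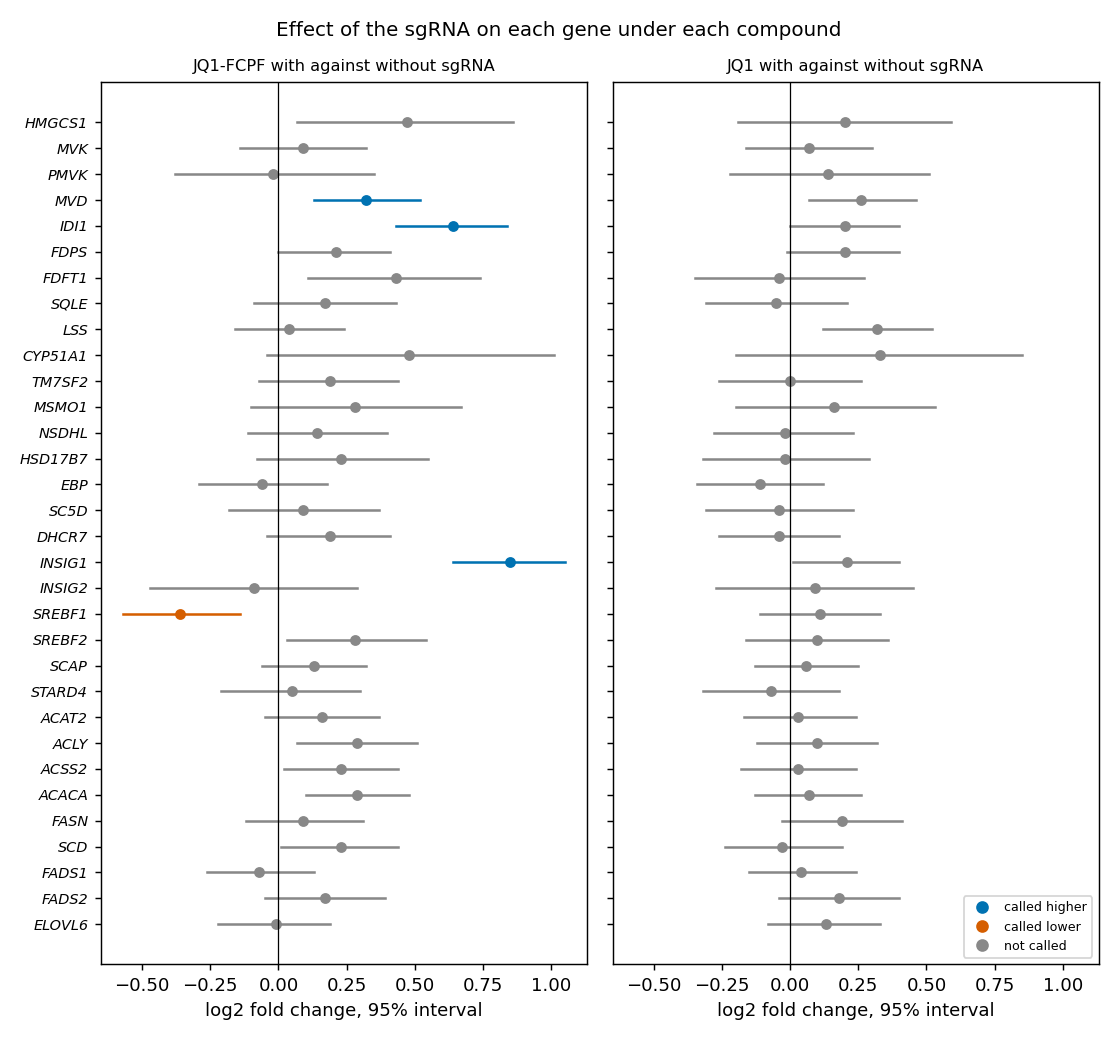
Log2 fold change of each of the 32 genes with against without sgRNA, under JQ1-FCPF (left) and JQ1 (right), with 95% intervals. INSIG1 at 0.85, IDI1 at 0.64 and MVD at 0.32 are called higher and SREBF1 at -0.36 lower on the left, and none is called on the right.

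Both JQ1 groups and both JQ1-FCPF groups were next set against the control. These 4 comparisons share the 3 control libraries, so their values stand side by side and are not independent. With JQ1 and no sgRNA, FDFT1, HSD17B7 and ACSS2 rose while SREBF1 and LSS fell. Of the 32 genes 3 were called higher and 2 lower (9.38% and 6.25%), against 6.04% and 6.16% of all genes, and the median log2 change was 0.03 against 0.00. The share called was thus near that of all genes. The mitochondrial share of counts was 2.28% to 3.18% with JQ1 and 3.21% to 5.91% in the control, and its part in these results was not tested.

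FDFT1, the enzyme that commits isoprenoids to sterols, had 242, 277 and 257 CPM in the control and 365, 399 and 384 with JQ1. Every JQ1 library was above every control library, and the rise was 1.48-fold (log2 0.57 ± 0.15, edgeR adjusted p = 0.0207). HSD17B7, a ketoreductase of sterol demethylation, went from 13.4, 11.2 and 10.3 to 15.8, 17.4 and 14.8 CPM (log2 0.46 ± 0.15, edgeR adjusted p = 0.0463). ACSS2, which makes acetyl-CoA from acetate, went from 71.8, 75.2 and 72.2 to 91.8, 99.7 and 96.1 CPM, again without overlap. Its change was 1.31-fold (log2 0.39 ± 0.10, edgeR adjusted p = 0.0182).

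SREBF1 fell from 263, 252 and 279 CPM to 179, 162 and 192, the clearest change of the 32 in this comparison (1.49-fold, log2 -0.58 ± 0.11, edgeR adjusted p = 0.00240). It was the one call here that held in 12 of 12 alternative analyses. LSS fell from 121, 113 and 125 CPM to 90.7, 97.5 and 98.7 (log2 -0.32 ± 0.10, edgeR adjusted p = 0.0319). MSMO1, a sterol methyl oxidase, had 31.6, 31.6 and 30.9 CPM in the control and 44.0, 44.5 and 44.9 with JQ1, with little spread in either group. It missed the threshold in the fit that shares its spread over all groups (log2 0.51 ± 0.18, edgeR adjusted p = 0.0701). HMGCS1 (0.46), STARD4, a carrier of cholesterol between membranes (0.31), INSIG2 (0.31), MVD (0.23), SQLE (0.22), SREBF2 (0.20) and INSIG1 (0.19) were not called. SCAP (-0.14), ACACA (0.06), FASN (-0.16) and SCD (-0.04) were not called either. The count of 5 fell to 1, SREBF1, without control replicate 3 or without replicate 2 or 3 of JQ1, to 2 without control replicate 1 and to 3 without replicate 1 of JQ1. Calls over all genes fell as well, from 1893 to 399, 687, 676, 936 and 834 in these fits, in the same order. The count of the 32 was 12 without the 2 libraries that stand apart, an alternative added after the data were seen. Neither of these libraries is in this comparison, but both enter the shared spread. Of all genes, 27.1% were called in that fit, against 12.2% with every library.

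**Figure D4:**
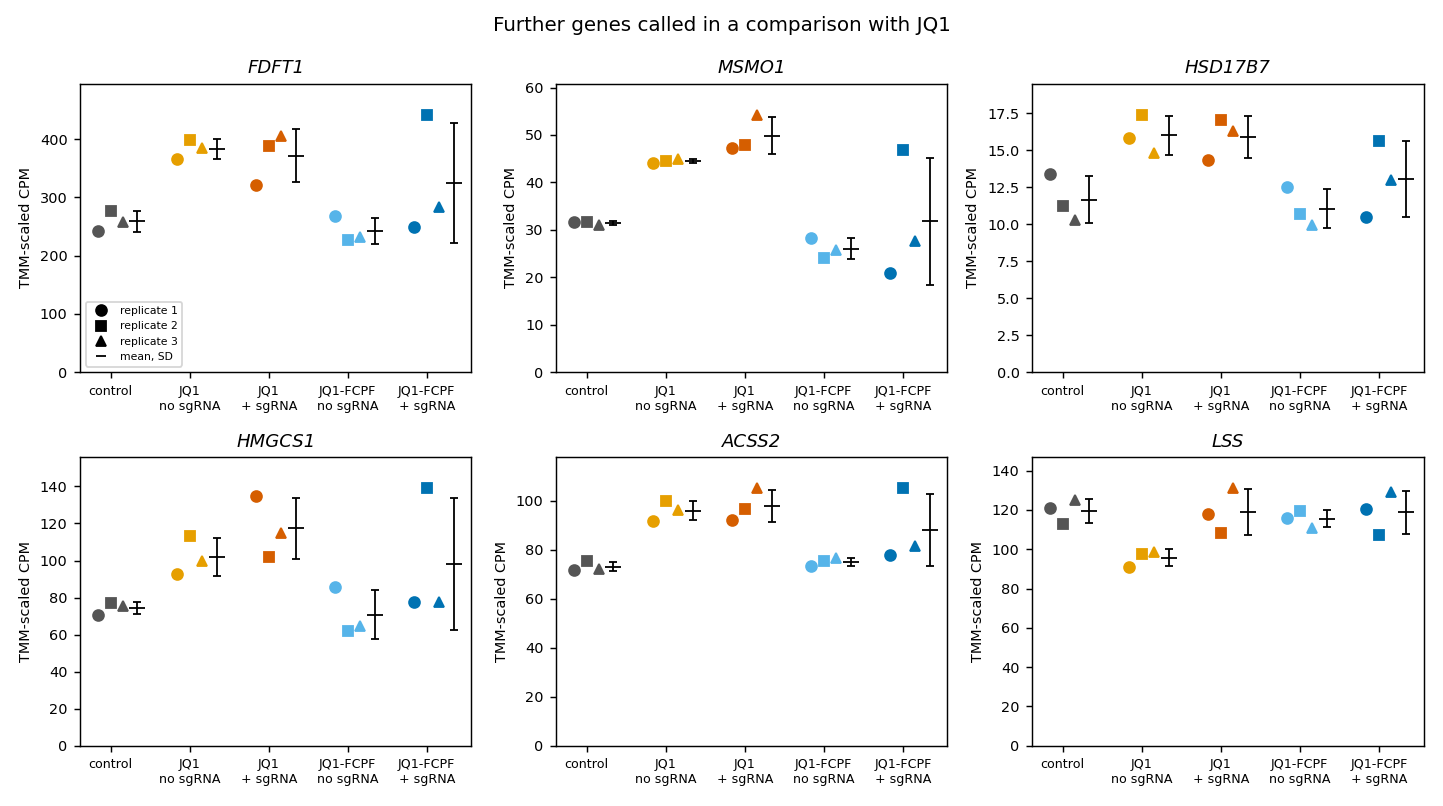
TMM-scaled CPM of FDFT1, MSMO1, HSD17B7, HMGCS1, ACSS2 and LSS in each library, with the mean and SD of each group of 3. For MSMO1 in JQ1-FCPF with sgRNA, replicate 2 (46.8 CPM) lies among the JQ1 libraries (44.0 to 54.3). The others (20.8 and 27.7) lie below the control (30.9 to 31.6). For FDFT1 (442) and HMGCS1 (139), replicate 2 lies above every JQ1 library.

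With JQ1 and sgRNA, 8 of the 32 genes were called higher and 1 lower (25.0% and 3.12%), against 7.11% and 7.08% of all genes. The median log2 change was 0.11, against 0.01. Of the mevalonate genes 3 of 6 were called, HMGCS1 (1.58-fold), MVD (1.41-fold) and IDI1 (1.32-fold), and of the squalene-to-cholesterol genes 3 of 11, MSMO1 (1.59-fold), FDFT1 (1.44-fold) and HSD17B7 (1.36-fold). MVD had the smallest adjusted p, with 217, 217 and 233 CPM against 158, 155 and 160.0 in the control (log2 0.49 ± 0.09, edgeR adjusted p = 0.00263). HMGCS1 had 135, 102 and 115 CPM against 70.6, 77.2 and 75.2 (log2 0.66 ± 0.19, edgeR adjusted p = 0.0271), and MSMO1 47.2, 47.9 and 54.3 against 31.6, 31.6 and 30.9 (log2 0.67 ± 0.18, edgeR adjusted p = 0.0186). None of these groups overlapped. INSIG1 (log2 0.39) and ACSS2 (log2 0.42) also rose, while SREBF1 fell to 206, 183 and 186 CPM (log2 -0.47 ± 0.11, edgeR adjusted p = 0.00706). LSS, lower with JQ1 and no sgRNA, had a log2 change of -0.01. INSIG2 (0.41), SREBF2 (0.31), SCAP (-0.09), SQLE (0.17), ACACA (0.13), FASN (0.03) and SCD (-0.06) were not called. The count of 9 was 4 without control replicate 2, 3 without control replicate 3 and 5 without replicate 3 of JQ1 with sgRNA. Calls over all genes were 1109, 698 and 1571 in these fits, against 2202 with every library. Without replicate 1 of JQ1 with sgRNA, which stands apart, the count of the 32 was again 9, with FDPS called and HMGCS1 not. That fit called 1789 of all genes. INSIG1, MVD and SREBF1 were called in 12 of 12 alternatives. The 9 calls here, against 5 with JQ1 and no sgRNA, are not read as a wider response. The test of JQ1 with against without sgRNA called 0. With only the groups compared in the fit, the counts were 9 with sgRNA and 13 without. Of all genes, those fits called 2065 and 4591, against 2202 and 1893 with every library. Leaving out the 2 libraries that stand apart gave counts of 11 and 12. Of all genes, 23.1% and 27.1% were then called, against 14.2% and 12.2% with every library.

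JQ1-FCPF without sgRNA, the same dose and time, gave 0 called genes of the 32 with edgeR and 0 with DESeq2, against 0% higher and 0.00644% lower of all genes. At an unadjusted edgeR p under 0.05 there was 1 of the 32 and 283 of all genes. The median log2 change was -0.07, against 0.00, and 5 of 32 values were above 0. SREBF1 had 232, 264 and 274 CPM against 263, 252 and 279 in the control, a log2 change of -0.05 with an interval of -0.26 to 0.17. For FDFT1 the change was -0.10 (-0.41 to 0.21), for ACSS2 0.04 (-0.17 to 0.25) and for INSIG1 -0.17 (-0.37 to 0.03). That 1 gene was IDI1, at -0.22 (-0.42 to -0.02), with an edgeR adjusted p of 1.000. NSDHL, a sterol dehydrogenase, and CYP51A1 had changes of -0.20 and -0.41, not called.

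JQ1-FCPF with sgRNA gave the 4 genes already seen against its own partner group: 3 higher and 1 lower (9.38% and 3.12%), against 2.45% and 4.83% of all genes. The median log2 change was 0.08, against 0.01. INSIG1 was 1.59-fold above the control (log2 0.67 ± 0.10, edgeR adjusted p = 7.84e-05), IDI1 1.34-fold (0.42, adjusted p = 0.00966) and MVD 1.27-fold (0.35, adjusted p = 0.0262). SREBF1 was 1.32-fold lower (log2 -0.40, edgeR adjusted p = 0.0219). ACACA (0.28), HMGCS1 (0.40), SREBF2 (0.22), SQLE (0.18), SCD (0.12), FASN (0.08), SCAP (0.03) and INSIG2 (-0.07) were not called. Without replicate 2 of JQ1-FCPF with sgRNA the log2 change was 0.07 for HMGCS1, 0.01 for SREBF2, -0.03 for SQLE and -0.27 for INSIG2. The count fell to 2 without any of the 3 control libraries or without replicate 2 of JQ1-FCPF with sgRNA. Calls over all genes were then 693, 695 and 538 for the control libraries and 1087 for replicate 2, against 1129 with every library. INSIG1 was called in 12 of 12 alternatives, IDI1 in 11, SREBF1 in 8 and MVD in 6. Without replicate 2, MVD had a log2 change of 0.26 (edgeR adjusted p = 0.0843). SREBF1 then had -0.30 (edgeR adjusted p = 0.0900).

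The compounds were compared with each other at the matched dose of 1 µM and time of 1 h. Without sgRNA, 7 of the 32 genes differed: JQ1-FCPF was lower for 6 (18.8%) and higher for 1 (3.12%), against 3.56% and 3.98% of all genes. The median log2 difference was -0.10, against 0.00. MSMO1 differed most, with 28.3, 24.0 and 25.8 CPM under JQ1-FCPF and 44.0, 44.5 and 44.9 under JQ1, groups far apart. The difference was 1.71-fold (log2 -0.77, interval -1.15 to -0.40, edgeR adjusted p = 0.0172). FDFT1, at 267, 226 and 231 against 365, 399 and 384 CPM, was 1.59-fold lower (log2 -0.67, interval -0.98 to -0.35, edgeR adjusted p = 0.0143). HSD17B7 (-0.53), IDI1 (-0.42), INSIG1 (-0.36) and ACSS2 (-0.35) were the other 4 lower genes, none with overlapping groups. SREBF1 was 1.45-fold higher under JQ1-FCPF (log2 0.53, interval 0.31 to 0.75, edgeR adjusted p = 0.00849).

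HMGCS1 (log2 difference -0.52, edgeR adjusted p = 0.0913) and LSS (0.28, adjusted p = 0.0778) were close to the threshold. SREBF2 had a difference of -0.27 (-0.53 to -0.01) and INSIG2 of -0.30 (-0.67 to 0.07). For the fatty acid genes the differences lay between -0.08 and 0.14: FASN 0.14 (-0.08 to 0.36), SCD -0.06 (-0.28 to 0.15) and ACACA -0.08 (-0.27 to 0.12). SCAP (0.04) and SQLE (-0.21) were not called. The count of 7 was 0 without replicate 2 of JQ1 or without replicate 3 of JQ1-FCPF, 1 without replicate 2 of JQ1-FCPF, and 3 and 2 without replicates 1 and 3 of JQ1. Calls over all genes fell as well, from 1170 to 83, 123, 298, 275 and 326 in these fits, in the same order. The count of the 32 was 11 without the 2 libraries that stand apart, a fit that called 22.7% of all genes against 7.54% with every library.

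With sgRNA, edgeR called 0 of the 32 genes between the compounds, against 1.14% higher and 1.76% lower of all genes. At an unadjusted edgeR p under 0.05 there were 3 of the 32 and 2809 of all genes, and DESeq2 called 2, MSMO1 and INSIG1. The median log2 difference was -0.03, against -0.01. MSMO1 had 20.8, 46.8 and 27.7 CPM under JQ1-FCPF and 47.2, 47.9 and 54.3 under JQ1, a log2 difference of -0.65 (-1.02 to -0.28, edgeR adjusted p = 0.0525). INSIG1 had 270.5, 251 and 304 against 229, 226 and 226 CPM, all 3 above (log2 0.28, edgeR adjusted p = 0.113). SREBF1 had a difference of 0.07 (edgeR adjusted p = 0.786). HMGCS1, HSD17B7, INSIG2, SCAP, SQLE, SREBF2, ACACA, FASN and SCD were not called.

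That result turned on replicate 2 of JQ1-FCPF with sgRNA. Without it, 8 of the 32 genes were called, 1 higher and 7 lower (3.12% and 21.9%), and the calls over all genes rose as well, to 8.20% higher and 9.20% lower of 15890 tested. MSMO1 was 2.04-fold lower than with JQ1 (log2 -1.03 ± 0.12, edgeR adjusted p = 1.59e-06), INSIG2 1.60-fold (-0.68, adjusted p = 0.0108), HMGCS1 lower by a log2 difference of -0.59 (adjusted p = 0.00318) and FDFT1 1.39-fold (-0.47, adjusted p = 0.00459). HSD17B7 (-0.42), SREBF2 (-0.30) and ACSS2 (-0.29) were lower as well. INSIG1 went the other way, 1.27-fold higher (0.35, edgeR adjusted p = 0.0134). Without both libraries that stand apart, 10 genes were called, 1 higher and 9 lower (3.12% and 28.1%), against 9.75% and 10.7% of all 15731 genes tested.

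In replicate 2 itself, 19 of the 32 genes were above both other replicates of its group (59.4%, against 42.3% of all genes tested), and 10 had their highest level of all 15 libraries there (31.2%, whereas 1867 of the 15517 genes tested did so). FDFT1 was 442 CPM against 249.7 and 283, HMGCS1 139 against 77.8 and 77.4, SREBF2 210.0 against 134 and 149, and SQLE 174 against 114 and 119. DHCR7 (282 CPM), SCD (967) and CYP51A1 (13.5) also had their highest level there, and none of them was called for JQ1 against the control. INSIG1 did not follow: it was 251 CPM in replicate 2 and 270.5 and 304 in the others. IDI1 was 77.4 against 74.3 and 70.5, and ACACA 165 against 171 and 166. The heat map of levels relative to the control shows this library beside the rest of its group.

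**Figure D5:**
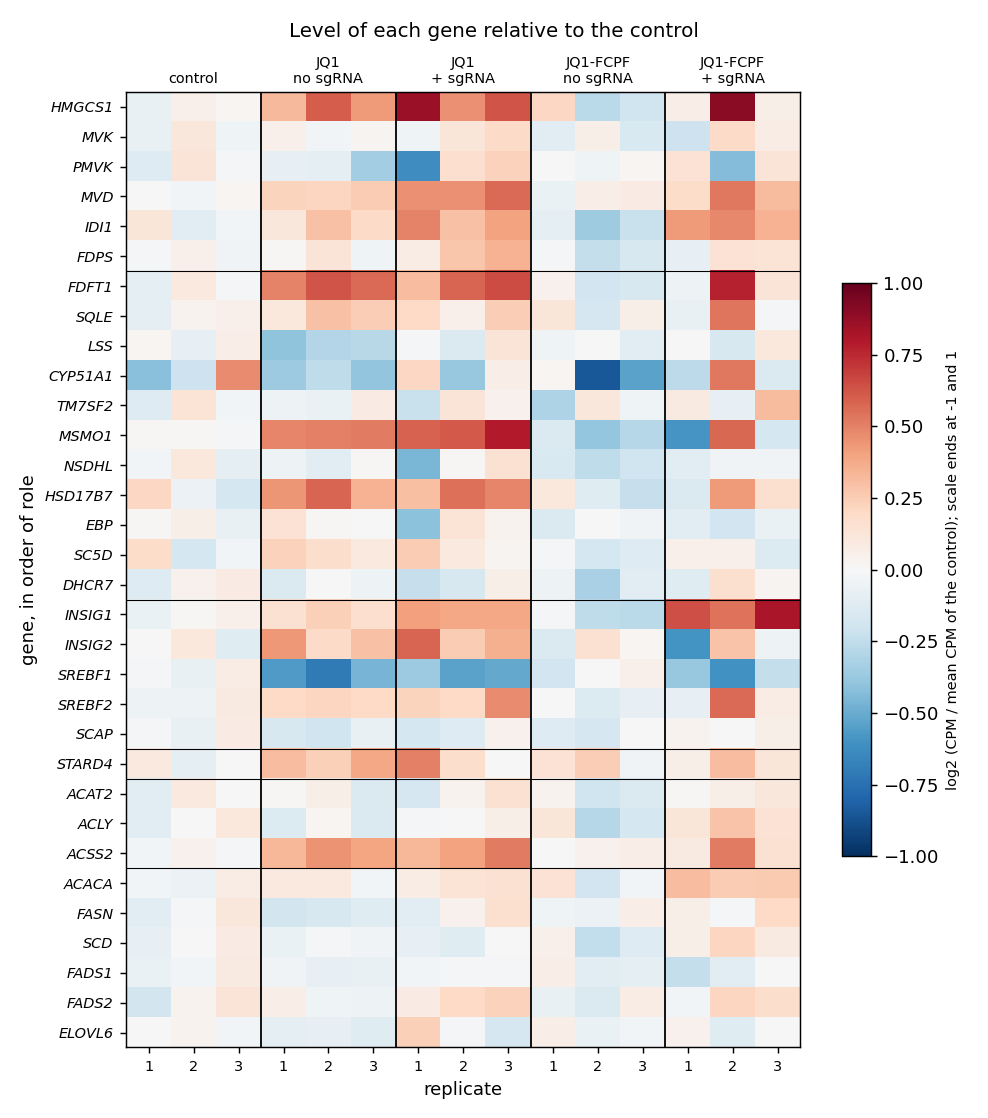
Colour gives log2 of each gene's CPM over its control mean, for the 32 genes (rows, ordered by role) in the 15 libraries (columns). HMGCS1, FDFT1 and MSMO1 are red in the JQ1 libraries and in replicate 2 of JQ1-FCPF with sgRNA, INSIG1 is reddest in JQ1-FCPF with sgRNA, and SREBF1 is blue in the JQ1 groups.

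Over all 9 comparisons, 10 of the 32 genes were called in at least 1: HMGCS1, MVD, IDI1, FDFT1, LSS, MSMO1, HSD17B7, INSIG1, SREBF1 and ACSS2. The other 22 were called in none. None of the 6 fatty acid genes was among the 10 (edgeR), although DESeq2 called ACACA for JQ1-FCPF with sgRNA against both its partner group and the control. Their largest log2 change in size was 0.29, for ACACA. FASN ranged from 989.6 to 1290 CPM over the 15 libraries and SCD from 701 to 967. The front-end desaturases FADS1 and FADS2 ranged from 445 to 559 and from 29.3 to 39.0 CPM, and the elongase ELOVL6 from 68.0 to 90.2. Among the sterol genes never called, CYP51A1 had the largest change, 0.48 with an interval of -0.04 to 1.01 (JQ1-FCPF with against without sgRNA), which was 0.21 without replicate 2. DHCR7 ranged from 201 to 282 CPM, EBP, the sterol isomerase, from 85.7 to 126 and NSDHL from 24.7 to 37.7. The kinases of mevalonate, MVK (26.4 to 34.7 CPM) and PMVK (17.2 to 31.0), and FDPS, the farnesyl diphosphate synthase (171 to 256), were not called.

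Further genes of the pathway were read from 5 lists of 67 genes, of which 63 were tested. They covered the control of the sterol-sensing factors, isoprenoid branches, sterol handling, LXR signalling and fatty acid handling. JQ1 without sgRNA against control called 4 higher and 4 lower of the 63 (6.35% each, against 6.04% and 6.16% of all genes). JQ1 with sgRNA called 4 and 6 (6.35% and 9.52%, against 7.11% and 7.08%). JQ1-FCPF with against without sgRNA called 1 higher and 2 lower (1.59% and 3.17%, against 1.98% and 4.14%). JQ1-FCPF with sgRNA against control called 1 and 4 (1.59% and 6.35%, against 2.45% and 4.83%). The compounds without sgRNA gave 2 and 2 (3.17% each, against 3.98% and 3.56%), and with sgRNA 1 and 0 (1.59% and 0%, against 1.14% and 1.76%). In JQ1 with against without sgRNA, the interaction and JQ1-FCPF without sgRNA against control, edgeR and DESeq2 each called 0, with 9, 4 and 4 of the 63 at an unadjusted edgeR p under 0.05. The shares called at the adjusted threshold were near those of all genes in the same comparisons. The unadjusted counts over all 15517 genes were 1240, 2155 and 283. The share among the 63 was in turn larger, smaller and larger than among all genes. It rests on few genes and is not read as a result about the lists.

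NFYA, the subunit of NF-Y that reads the CCAAT box, had the smallest adjusted p of the 63 with JQ1. It had 51.7, 59.8 and 68.9 CPM in the control, 32.6, 37.0 and 33.9 with JQ1 and 32.8, 32.3 and 33.4 with JQ1 and sgRNA. All 6 JQ1 libraries were below all control libraries, with log2 changes of -0.80 (edgeR adjusted p = 4.34e-04) and -0.87 (1.20e-04). JQ1-FCPF without sgRNA left it at 59.0, 55.4 and 53.0 CPM, and with sgRNA it was 43.5, 38.2 and 50.0, a log2 change of -0.45 from the control (edgeR adjusted p = 0.0143), or -0.35 and not called without replicate 2 (edgeR adjusted p = 0.0550). ELOVL7, an elongase of long fatty acids, moved the other way, from 12.9, 12.4 and 13.1 CPM in the control to 23.4, 23.1 and 21.6 with JQ1 (log2 0.83, edgeR adjusted p = 0.00325). In JQ1-FCPF with sgRNA it had 15.7, 26.6 and 15.4 CPM, replicate 2 alone being at the JQ1 level. PDSS1, which makes the side chain of coenzyme Q, fell with JQ1 (log2 -0.58, edgeR adjusted p = 0.0174), and OSBPL2, an oxysterol-binding protein, rose (0.43, adjusted p = 0.0359).

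RNF139, a sterol-responsive ubiquitin ligase, was lower in JQ1-FCPF with sgRNA, at 20.2, 19.9 and 20.8 CPM, than without, at 31.5, 25.5 and 24.6 (log2 -0.42 ± 0.11, edgeR adjusted p = 0.0204). Replicate 2 lay with its group. Its change was -0.41 without that library (edgeR adjusted p = 0.0314). OXSM, the mitochondrial ketoacyl synthase, fell likewise (log2 -0.41, edgeR adjusted p = 0.0337), and was not called without replicate 2 (-0.36, edgeR adjusted p = 0.0777). ELOVL7 was called higher there (0.56, edgeR adjusted p = 0.0411), a call that rested on replicate 2: without it the change was 0.26 (edgeR adjusted p = 0.251).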

How the data were processed

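RNA sequencing measured 15 libraries of K562 cells, in 5 groups of 3 taken from the labels. The authors deposited raw counts of reads per gene, as whole numbers without normalization, in 1 table per library with featureCounts-style columns, per the file headers. What aligner, genome build, annotation and strand setting were used is not given in the sources used here. Among 57500 identifiers, 56898 were in GENCODE 29, 96.3% with the same start and end, so coordinates are those of GRCh38, and 56410 had a symbol. Multiply assigned or overlapping genes could shift single values.

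The 32 genes and all lists were chosen with earlier results of these data known. Counts were filtered with filterByExpr, scaled by TMM and fitted in 1 robust quasi-likelihood model over all 15 libraries with edgeR 4.0.16 (R 4.3.3, limma 3.58.1), with Benjamini-Hochberg adjustment over 15517 genes and a threshold of 0.05. The biological coefficient of variation was 11.1%. RPKM used the exonic length given in the tables. The scripts were tested on simulated data. The genes named are the 5 regulators, HMGCS1, SQLE, ACACA, FASN and SCD, every gene of the list with adjusted p under 0.05 in a comparison, up to 4 with the smallest p, up to 6 called genes of the wider lists per comparison, and MYC, TXNIP and HEXIM1 as checks. Some items were chosen after their values were seen. They are MSMO1 without sgRNA, STARD4, MVD and OSBPL2 with JQ1 and no sgRNA, and LSS near the threshold. The ranges of the genes never called, and the libraries of FDFT1, IDI1 and ACACA quoted for replicate 2, were chosen likewise. Not every called gene of the wider lists is described: GPAM, NPC2, SPRING1 and MECR had smaller p than OSBPL2 with JQ1 and no sgRNA. Alternatives were DESeq2 1.42.0, its size factors in edgeR, no filter, the replicate number as a block, only the groups compared, and each library left out. Leaving out both libraries that stand apart was added after seeing the data.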

Additional observations from a re-analysis of the deposited data

Results flagged for a closer look

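The sgRNA effect on INSIG1 differed between the compounds by a test of the difference itself: it was larger under JQ1-FCPF than under JQ1 by 0.64 on the log2 scale (edgeR's quasi-likelihood interaction test, adjusted p = 0.0210), higher in 3 of 3 libraries with sgRNA than in each library without it under both compounds. The call held in 10 of 18 alternatives, with adjusted p from 8.61e-05 to 0.0969. Groups of 3 libraries are too small for a check of single libraries against their group.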

How the results depend on the processing

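Over 119 values of named genes and 1500 alternative values, 1352 stayed on the same side of the threshold, 108 lost a call and 40 gained one. Among the 1352 were 44 values not called in either fit that changed sign, so their direction is not read, and 0 called values changed sign. With only the groups compared in the fit, the number of the 32 genes called was 2 for JQ1-FCPF with against without sgRNA, 0 for the interaction, 13 for JQ1 without sgRNA against control, 2 for JQ1-FCPF with sgRNA against control and 11 between the compounds without sgRNA. Over all genes, those fits called 358, 82, 4591, 555 and 2995, against 951, 119, 1893, 1129 and 1170 with every library. Without both libraries that stand apart, the number of the 32 was 2 for the interaction and 12 for JQ1 without sgRNA against control. It was 11 between the compounds without sgRNA and 10 with sgRNA. Of all genes, 3.76%, 27.1%, 22.7% and 20.5% were then called, against 0.767%, 12.2%, 7.54% and 2.90% with every library. For the compounds with sgRNA, DESeq2 gave 2 and no filter on low counts 1, against 0. Over all genes they gave 636 and 776, against 450. Leaving out 1 library at a time gave 2 to 5 for JQ1-FCPF with against without sgRNA, 0 to 1 for the interaction, 1 to 4 and 3 to 9 for JQ1 without and with sgRNA against control, 2 to 4 for JQ1-FCPF with sgRNA against control, and 0 to 7 and 0 to 8 between the compounds without and with sgRNA. Calls over all genes in those fits were, in the same order, 430 to 1133, 49 to 346, 399 to 1329 and 698 to 1789. They were 538 to 1191, 83 to 963 and 66 to 2765 for the remaining comparisons. The causes were not tested. As a replicate block, the replicate numbers gave 3, 0, 1, 4, 8, 0, 4, 7 and 0 calls (JQ1-FCPF with against without sgRNA, the same for JQ1, the interaction, JQ1 without and with sgRNA and JQ1-FCPF without and with sgRNA against control, the compounds without and with sgRNA). Same-numbered libraries had correlations of -0.238 to 0.311 (median -0.0085), over 0.1 in 4 of 30 pairs, so the numbers are not read as pairing. Depth limits CYP51A1, INSIG2 and SC5D most, the lowest level being 4.37 CPM. HSD17B7 was also low, at 9.92 to 17.4 CPM. Its calls for JQ1 without and with sgRNA against control held in 5 and 6 of 12 alternatives.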
